A study of Mus musculus with 2 samples.

Results

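The genes described here encode the machinery that carries proteins into mitochondria and the chaperones and proteases that handle them there. They were chosen by gene symbol, as Timm or Tomm followed by a digit plus a set of named partners, in a group that was put together with results of these same arrays in view, so that its direction is a description and not independent evidence. The rule found 37 genes among the 18193 named on the array, each represented by its brightest probe set, selected on the mean log2 signal of both arrays. Of these, 35 were above the background floor on both arrays. The other two, Tomm20l and Timm8a2, lay under it on both and received no ratio. Phb and Dnajc19 have no probe set assigned to them alone and are not among the 37.

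CD4 T cells from the spleens of C57BL/6 mice were activated through the T cell receptor and CD28 for 2 days under either of 2 culture conditions and cultured for 3 further days. The condition labelled CD103+ Th1 combined 3 ng/ml of IL-4 with 10 ng/ml of IFN-γ and 3 ng/ml of TGF-β. The condition labelled Th1 held IL-12 at 1 ng/ml and a blocking antibody to IL-4 at 1 µg/ml. The cells were wild type and sorted to a purity above 98%, and the number of mice is not given in the sources used here. Each condition gave 1 Affymetrix array of total RNA, so the differences given here have no replicate check, no error and no p-value, and their precision is limited by the number of arrays.

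The comparison sets CD103+ Th1 cells against IL-12-driven Th1 cells, and every ratio is CD103+ Th1 over Th1. Median signals were 78 and 78.8, and means after trimming 2% at each end were 498 on both arrays. The floor was the pooled median of 78.5. The T cell genes Cd3d, Cd3e, Cd3g, Cd4, Cd5 and Cd28 were all above it, and their signals summed to 46956 in CD103+ Th1 against 43214 in Th1. Cd8a and Cd8b1 were also above it, with sums of 3647 and 1163. Of 4 B cell markers 1 was measured, Cd79b, and of 6 myeloid and dendritic markers 2 were, Csf1r and Adgre1. The summed signals were 326 and 229 for the B cell list and 250.2 and 454 for the myeloid and dendritic list. The NK and erythroid markers with a named probe set were under the floor. The part of these cells in the differences below was not tested. In RNA of whole cultures, fewer cells of a type and less RNA per cell cannot be told apart.

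Nearly all mitochondrial proteins are made in the cytosol and cross the outer membrane through the TOM complex. From there, proteins with a cleavable targeting sequence pass the TIM23 channel, pulled in by a motor built on the chaperone mtHsp70, while carrier proteins are escorted by small TIM chaperones to the TIM22 complex. In the matrix the targeting sequence is cut off, HSP60 and HSP10 fold the protein, and the LON and CLP proteases remove damaged ones. Activated T cells enlarge their mitochondria as they start to divide, and this machinery supplies the added protein.

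The import and chaperone genes were lower in CD103+ Th1 as a group, by small amounts. Of the 35 measured genes, 32 had a log2 ratio below 0, against 52.6% of the 11194 measured genes, and their median log2 ratio was -0.41 (1.33-fold lower) against -0.027 for all measured genes. The 3 exceptions were Timm29, Tomm34 and Grpel2. At least 1.5-fold lower were 8 members, or 22.9%, against 13.4% of all measured genes, and 0 members were at least 1.5-fold higher, against 12.4%. At 2-fold, 2 members were lower, beside a background of 4.87%, and 0 higher, beside 5.04%, so that the 2-fold share lay near the background and the group differed from other genes in small ratios of one sign. The quartiles of the members' mean signals were 1164 and 3620.1. The 2668 genes within that range of brightness had a median log2 ratio of -0.013 with 51.1% below 0. Genes in the members' middle range of brightness thus did not share their direction, and the brighter and dimmer members lie outside that range.

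**Figure D1:**
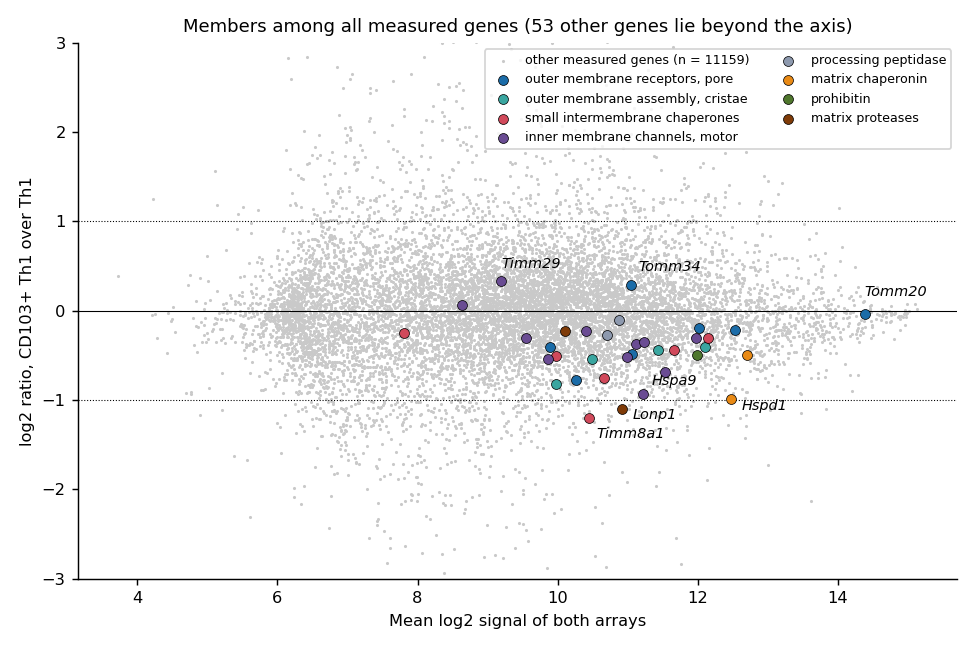
Each point is a gene, with the mean log2 signal of both arrays on the horizontal axis and the log2 ratio of CD103+ Th1 over Th1 on the vertical axis. Coloured points are the 35 measured import and chaperone genes by role, grey points the other 11159 measured genes, and dotted lines mark 2-fold. All but 3 of the coloured points lie below 0, mostly within 2-fold.

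The receptors and the pore of the outer membrane ranged from lower to slightly higher. Tomm40, which forms the protein-conducting pore, had the largest difference, at 934 in CD103+ Th1 against 1604 in Th1, or 1.72-fold lower. Tomm70a, the receptor for carrier proteins handed over by cytosolic chaperones, had 1813 and 2542, 1.40-fold lower. Its 4 measured probe sets were all below 0, from -1.04 to -0.21 on the log2 scale. The central receptor gene Tomm22 was 1.15-fold lower, with 3895 and 4469.7. Tomm7, for a small subunit of the complex, was 1.16-fold lower with 5502 and 6393.

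Tomm20, the receptor for cleavable targeting sequences, showed little difference on its brightest probe set, with 21114.5 and 21703. It had 6 measured probe sets, and they went both ways. One of modest signal had 257 in CD103+ Th1 and 122 in Th1, 2.11-fold higher, while the others had log2 ratios between -0.30 and 0.14. The direction of Tomm20 therefore depended on the probe set taken, and after quantile normalization its log2 ratio was 0.026.

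Tomm34 was higher in CD103+ Th1, with 2353 against 1921, 1.22-fold. It encodes a cytosolic protein that binds HSP70 and HSP90 and is not a subunit of the TOM pore. Tomm40l, a relative of the pore gene, had 823 and 1092 on its brightest probe set, 1.33-fold lower. Its dimmer probe set was above the floor in CD103+ Th1 alone, with a log2 ratio of at least 0.34. Of the 7 measured genes of this set 6 were below 0, with a median of -0.22.

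The genes for outer membrane assembly and for the contact between both membranes were all lower in CD103+ Th1. Samm50 encodes the core of the machine that inserts barrel-shaped proteins into the outer membrane, and measured 3851 and 5091, 1.32-fold lower. Its partners Mtx1 and Mtx2 were 1.36-fold lower (2384 and 3242) and 1.77-fold lower (761 and 1347). Immt, which encodes mitofilin, the organiser of cristae junctions, had 1197 and 1735, 1.45-fold lower, and its 3 probe sets ranged from -0.54 to -0.31. The median of the 4 genes was -0.49.

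**Figure D2:**
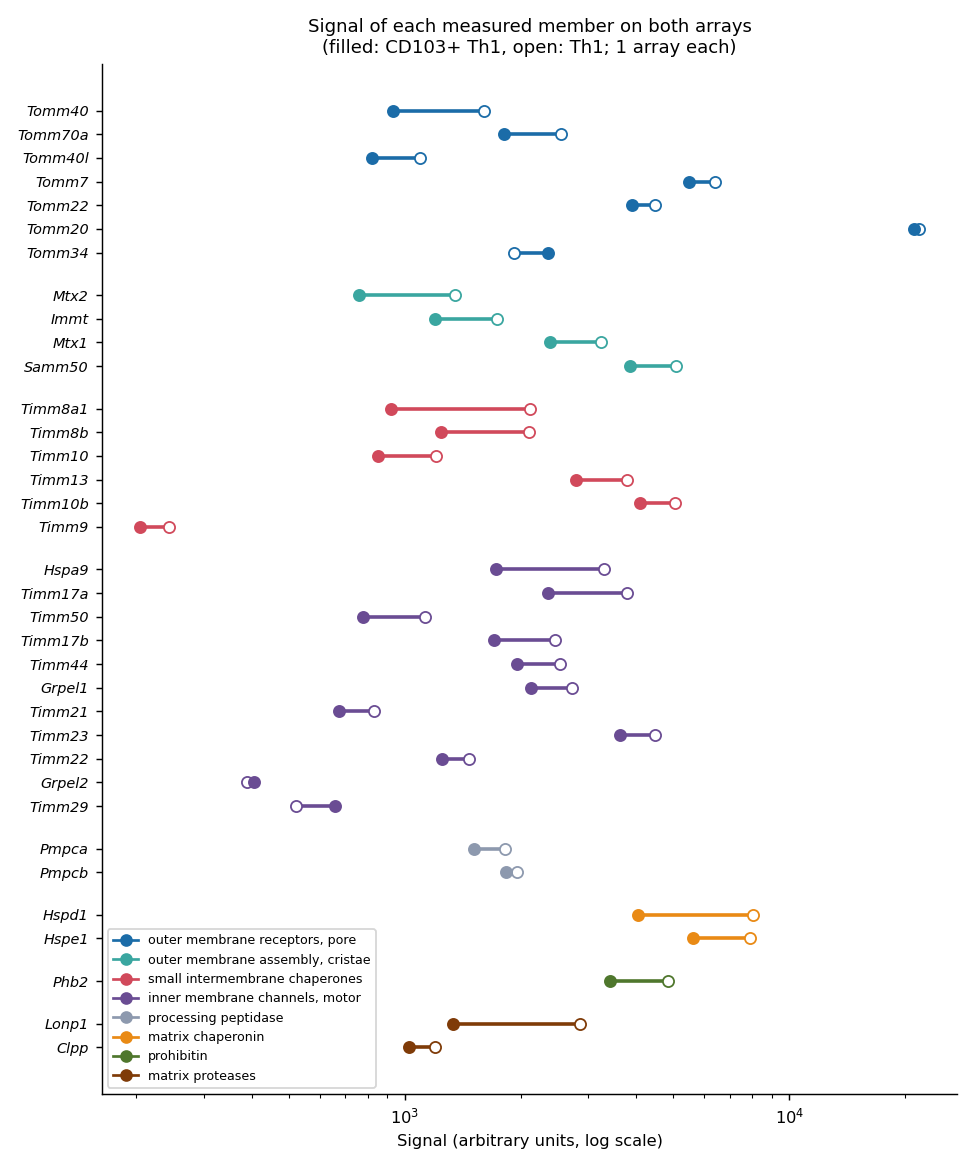
Signals of the 35 measured genes on a log axis in arbitrary units, grouped by role, with the CD103+ Th1 array filled and the Th1 array open. The filled point lies to the left of the open one in 32 genes and to the right in Tomm34, Timm29 and Grpel2. Levels of different genes come from different probe sets and are not comparable.

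The small chaperones of the space between the membranes held the member with the largest difference. These proteins form hexamers that shield membrane proteins on their way in, TIM8 with TIM13 and TIM9 with TIM10. Timm8a1, the mouse relative of the human deafness-dystonia gene, measured 921 in CD103+ Th1 against 2119 in Th1 and was 2.30-fold lower. Both of its probe sets lay close together, at log2 ratios of -1.24 and -1.20. The other TIM8 gene, Timm8b, was 1.69-fold lower, with 1243 and 2100.1, and the partner gene Timm13 was 1.35-fold lower, with 2794 and 3781.

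Of the TIM9 and TIM10 genes, Timm10 had 850.1 and 1205, 1.42-fold lower, and Timm9 205 and 244, 1.19-fold lower. Timm10b, whose product ties the hexamer to the TIM22 complex, was 1.23-fold lower with 4095 and 5053, and its 4 probe sets lay between -0.30 and -0.20. All 6 measured genes were below 0, with a median of -0.47.

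In the TIM23 channel and its motor, Hspa9 stood lowest. It encodes mtHsp70, or mortalin, whose cycles of ATP hydrolysis draw proteins into the matrix, and it was 1.91-fold lower, at 1725 in CD103+ Th1 against 3297 in Th1. Its 3 measured probe sets were between -0.97 and -0.72. Timm44, which tethers mtHsp70 to the channel, was 1.29-fold lower on its brightest probe set (1962 and 2539). Another Timm44 probe set of similar signal was only 1.04-fold lower (2025 and 2108), and the remaining one had a log2 ratio of -0.42. Of the nucleotide exchange factors of mtHsp70, Grpel1 was 1.28-fold lower (2129.7 and 2716). Its paralog Grpel2 had 406 and 389.5, with probe sets of both signs, and its log2 ratio of 0.059 turned to -0.017 after quantile normalization.

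The channel subunits were all lower by less than 2-fold. Timm17a had 2355 and 3775, 1.60-fold lower, and its paralog Timm17b 1708 and 2452, 1.44-fold lower. Timm23, which lines the channel, had 3631 and 4478, 1.23-fold lower. Timm50, the receptor of the channel, was 1.45-fold lower on its brightest probe set, with 777 and 1127, but only 1.03-fold lower on the other measured one. Timm21, which links TIM23 to TOM and to the respiratory chain, had 672 and 833, 1.24-fold lower.

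The TIM22 complex, which inserts carrier proteins, was split. Timm22, its channel gene, had 1251 and 1469, 1.17-fold lower on a pair of probe sets that were both near -0.23. Timm29, an accessory subunit, was 1.26-fold higher, with 657 in CD103+ Th1 and 522 in Th1, and its other probe set had a log2 ratio of 0.22. Timm29 had the highest ratio of all members. Over the 11 measured genes of the inner membrane channels and motor, the median was -0.35 and 9 were below 0.

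The genes for cutting and folding imported proteins were all below 0. The peptidase that removes targeting sequences has a pair of subunits. Pmpca measured 1515 and 1826, 1.21-fold lower, and Pmpcb 1828 and 1957, 1.07-fold lower. The second probe set of each differed more, at log2 ratios of -0.50 for Pmpca and -0.20 for Pmpcb. Hspd1, for the HSP60 ring that encloses folding proteins, was 1.99-fold lower, at 4054 in CD103+ Th1 against 8069 in Th1 on its 1 probe set. Hspe1, for its HSP10 lid, was 1.41-fold lower, with 5623 and 7919, and its second probe set had a log2 ratio of -0.55.

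Hspd1 and Hspe1 lie head to head on chromosome 1 and are read in opposite directions from the DNA between them. That DNA is shown because both genes were lower, though by unequal amounts. The sequence is from RefSeq (GRCm38.p6, chr1:55087933-55088147, plus strand). It runs from the Hspd1 start with the lower coordinate, of the 2 listed, to the start of Hspe1. Capitals mark a run of 18 bases, at positions -89 to -72 from the Hspe1 start, that holds 3 overlapping matches to GAANNTTC or TTCNNGAA, the paired units to which heat shock factors bind.
Hspd1-Hspe1: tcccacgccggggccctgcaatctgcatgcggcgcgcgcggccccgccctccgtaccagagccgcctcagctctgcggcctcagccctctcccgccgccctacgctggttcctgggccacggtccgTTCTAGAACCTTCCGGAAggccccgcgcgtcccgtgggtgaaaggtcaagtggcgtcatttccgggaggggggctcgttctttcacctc

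The quality control genes also differed in size. Lonp1, which encodes the ATP-dependent LON protease of the matrix, was 2.14-fold lower on its 1 probe set, at 1332 in CD103+ Th1 against 2849 in Th1. Clpp, the proteolytic chamber of the other matrix protease, had 1023 and 1196, 1.17-fold lower on its brightest probe set, and both of its probe sets were below 0. Phb2, for prohibitin 2, a scaffold of the inner membrane, had 3418 and 4830.1, 1.41-fold lower, with 4 probe sets from -0.50 to -0.24. Together with Timm8a1, Lonp1 was past 2-fold, and Hspd1 was just short of it at 1.99-fold. Around 1.5-fold, Timm17a at 1.60-fold was the nearest above, and Timm50 and Immt, both at 1.45-fold, were the nearest below.

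Probe sets of the same gene mostly gave the same sign. Of 23 members with several measured probe sets, 20 had all of them in one direction and 3, Tomm20, Tomm40l and Grpel2, in both. The median range of the log2 ratio over a member's probe sets was 0.12, and the widest was 1.38, in Tomm20. Of 72 measured probe sets 65 were below 0. In 17 members the brightest probe set carries a suffix letter, which marks probes that can match more than 1 transcript, and Lonp1, Mtx2, Timm13, Timm8b and Tomm40 have no other measured one. Without such probe sets 1 of 30 members passed 2-fold and 4 passed 1.5-fold, all of them lower. The genes lost by this choice, except Timm13, had been past 1.5-fold. Under this choice 13.1% of all measured genes were at least 1.5-fold lower, so that the members' share at 1.5-fold was then near the background, while 27 of the 30 were still below 0.

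**Figure D3:**
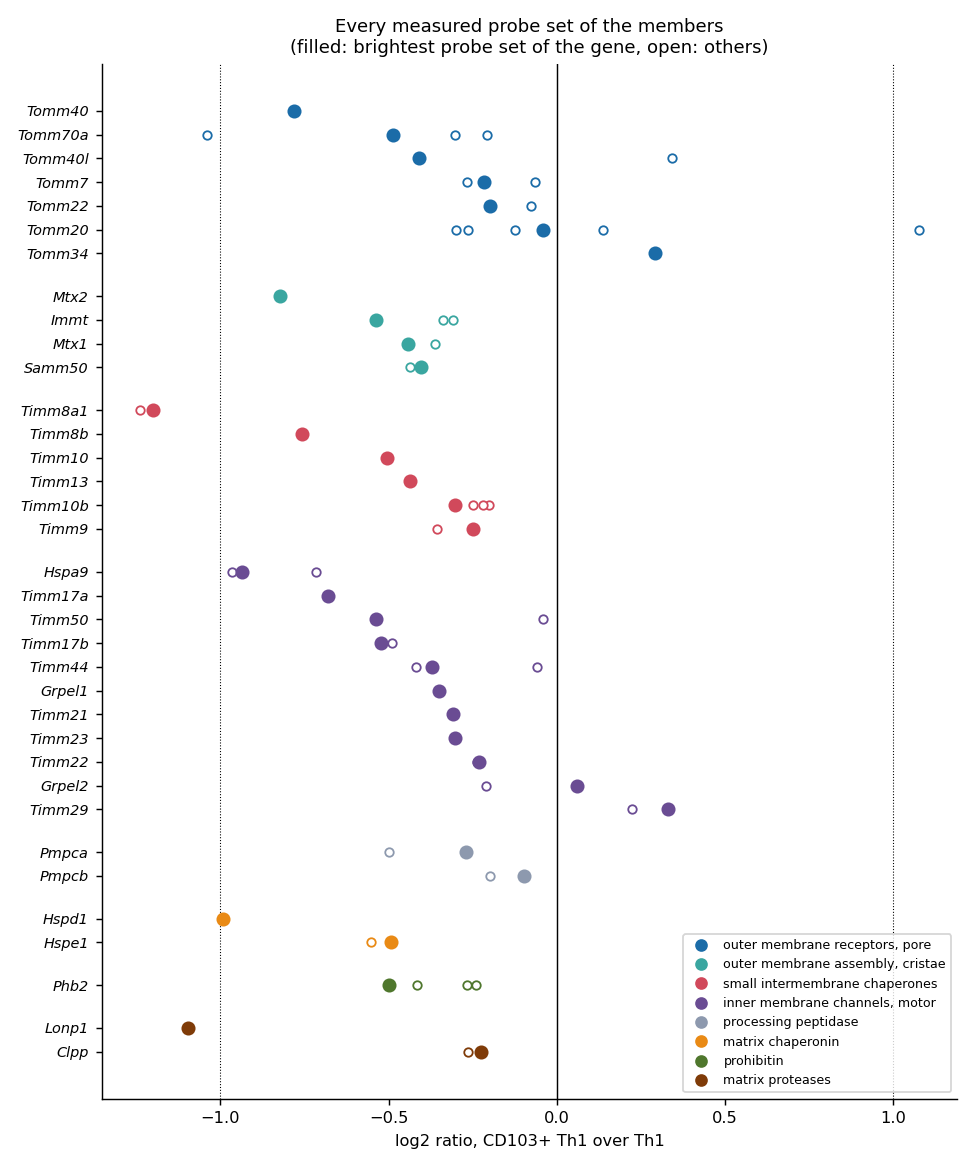
Each point is a measured probe set of a member, placed by its log2 ratio of CD103+ Th1 over Th1, with the brightest probe set of each gene filled and the others open. Dotted lines mark 2-fold. Of the 72 points 65 lie to the left of 0, and the widest spread is in Tomm20.

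A promoter motif that the choice of genes did not use was more frequent among the members than among all measured genes. Its share was not looked up in genes of like brightness or in other mitochondrial gene groups. In RefSeq (GRCm38.p6), 30 of the 35 measured members have a listed promoter, and Hspa9, Grpel2, Timm21, Tomm7 and Tomm40l do not. The 250 bases before each start were searched on both strands. The motif CCGGAAG, a core to which ETS factors such as GABP bind, was found in 16 of the 30 members (53.3%). It was found in 16.3% of 9128 measured genes with a listed promoter and in 7.83% of all 27025 genes with one. Within 60 bases of the start it was found in 10 of the 30 (33.3%), against 8.71% of the measured genes. Matches overlap the heat shock units of Hspd1, Hspe1 and Tomm22. Hspd1 and Hspe1 share the same letters, which are counted for both genes.

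The 10 members with CCGGAAG or its reverse complement CTTCCGG close to the start are shown to let the place of the motif be seen. Each line gives the 60 bases before the start on the gene's own strand, and capitals mark the motif. For Tomm34, which has more than 1 listed start, the downstream one is shown. The coordinates are, in the same order, chr2:26389288-26389347 (plus), chr2:74825752-74825811 (plus), chr2:84826961-84827020 (plus), chr2:164071103-164071162 (minus), chr3:89213908-89213967 (minus), chr5:21737100-21737159 (plus), chr9:50603841-50603900 (plus), chr14:32201892-32201951 (minus), chr15:79670808-79670867 (plus) and chr16:57121654-57121713 (plus).
Pmpca: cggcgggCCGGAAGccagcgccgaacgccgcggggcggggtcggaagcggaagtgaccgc
Mtx2: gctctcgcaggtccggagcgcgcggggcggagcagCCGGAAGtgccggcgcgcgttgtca
Timm10: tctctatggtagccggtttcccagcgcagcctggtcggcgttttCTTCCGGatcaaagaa
Tomm34: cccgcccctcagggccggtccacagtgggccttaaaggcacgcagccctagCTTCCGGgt
Mtx1: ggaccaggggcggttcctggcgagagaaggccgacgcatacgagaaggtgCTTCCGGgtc
Pmpcb: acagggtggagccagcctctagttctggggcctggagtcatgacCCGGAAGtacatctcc
Timm8b: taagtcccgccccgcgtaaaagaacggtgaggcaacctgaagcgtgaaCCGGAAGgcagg
Timm23: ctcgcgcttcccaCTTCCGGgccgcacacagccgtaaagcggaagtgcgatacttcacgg
Tomm22: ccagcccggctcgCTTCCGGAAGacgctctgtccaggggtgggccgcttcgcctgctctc
Tomm70a: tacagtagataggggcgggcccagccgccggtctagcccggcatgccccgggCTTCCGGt

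Members with and without this motif had medians that lay close together. A link between the ratios and the motif was not tested. Members with it had a median log2 ratio of -0.47 (n = 16) and members without it -0.42 (n = 14), and the higher genes Timm29 and Tomm34 both carry it. Over all measured genes, those with the motif had a median of -0.035 and those without it -0.027. A match is a description of letters, and binding was not measured.

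The other motifs were found in fewer members. The E-box CACGTG, which MYC and related factors bind, was in 5 of 30 members (16.7%), against 9.95% of measured genes. Within 60 bases of the start it was in 2 (6.67%), against 3.65%. The 5 members are Timm8a1, Lonp1 and Hspd1, the 3 lowest members, and Timm9 and Tomm20, at log2 ratios of -0.25 and -0.040. The E-box of Hspd1 lies before its other listed start and not in the stretch printed above. The paired heat shock units were in 6 of 30 members (20.0%), against 12.3%. Among them Hspd1 and Hspe1 share the same run, and the match of Tomm22 lies within its ETS-type letters. The NRF1-type motif GCATGCGC was in 2 (6.67%), against 5.08%. CCAAT was in 8 (26.7%), a smaller share than the 40.4% of measured genes. The promoters of Lonp1 (chr17:56626904-56627153, minus strand) and Timm8a1 (chrX:134541671-134541920, minus strand) are shown as those of both members past 2-fold, with the E-box in capitals. It lies at positions -36 to -31 from the start in Lonp1 and -236 to -231 in Timm8a1.
Lonp1: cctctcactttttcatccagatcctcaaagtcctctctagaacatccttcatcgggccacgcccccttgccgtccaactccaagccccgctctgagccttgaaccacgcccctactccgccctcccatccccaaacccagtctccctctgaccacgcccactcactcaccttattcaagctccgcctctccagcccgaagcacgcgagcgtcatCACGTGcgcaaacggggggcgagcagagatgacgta
Timm8a1: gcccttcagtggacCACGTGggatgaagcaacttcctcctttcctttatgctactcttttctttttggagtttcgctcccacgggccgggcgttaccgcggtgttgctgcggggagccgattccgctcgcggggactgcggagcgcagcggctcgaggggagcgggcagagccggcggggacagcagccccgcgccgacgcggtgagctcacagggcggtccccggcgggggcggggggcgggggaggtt

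Among all 908 measured genes with an E-box in this window the median log2 ratio was -0.035, and among the 8220 without it -0.028. The 5 members with it ranged from -1.20 to -0.040, with a median of -0.99. The 25 members without it ranged from -0.82 to 0.33, with a median of -0.44. Members with paired heat shock units had a median of -0.34 (n = 6) and members without them -0.47 (n = 24). For CCAAT the medians were -0.53 with it (n = 8) and -0.37 without it (n = 22). For the NRF1-type motif they were -0.39 (n = 2) and -0.47 (n = 28). Binding was not measured, and a link between any of these motifs and the ratios was not tested.

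Further genes of import and protein quality control, from a list outside the rule, were lower as well. The list was also drawn up with earlier results of these data known, so its direction is not independent evidence. It also holds Lonp2, for a peroxisomal protease, and the cytosolic helper genes Hspa8, Hsp90aa1, Dnaja1, Dnaja2, Stip1 and Bag1. Among these helpers, Hsp90aa1 was 1.68-fold and Stip1 1.70-fold lower, and the others were less than 1.5-fold apart. Of 48 listed genes 44 were measured. Of these, 40 were below 0, 18 were past 1.5-fold in the lower direction (40.9%) and 0 in the higher, and the median log2 ratio was -0.38. Over all measured genes the shares were 52.6% below 0, 13.4% lower and 12.4% higher at 1.5-fold. Afg3l2, a subunit of the AAA protease that faces the matrix, was 2.53-fold lower, at 1693 against 4287, though its 3 probe sets ranged from -1.34 to -0.31. Cox18, an insertase for a respiratory subunit, was 1.96-fold lower (956.5 and 1870.0). Dnajc15, a motor component related to Dnajc19, was 1.95-fold lower (2656 and 5193). The stress-activated protease gene Oma1 was 1.83-fold lower (774 and 1419).

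The relay that puts disulfide bonds into the small TIM proteins was among these genes. Gfer, its sulfhydryl oxidase, had 1693 and 3239.98, 1.91-fold lower on its brightest probe set, with -0.31 on the other. Chchd4, the receptor of the relay, was 1.74-fold lower (751 and 1309) and was chosen after its value was seen.

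Of regulators linked to mitochondrial growth or stress, 18 of 20 were measured, 11 were below 0 (61.1%, near the 52.6% of all measured genes), and the median was -0.31. Those with the largest ratios are named, and they do not stand for the list. Hsf2, a heat shock factor gene, was above the floor in Th1 alone, with 56.8 and 139, at least 1.77-fold lower. Myc, which drives cell growth in activated T cells, had 2129.9 and 3479, 1.63-fold lower on its 1 probe set. Gabpb1, for a subunit of the ETS factor GABP, was 1.51-fold lower (474 and 717), with its other probe set at 0.14. Hif1a was 1.51-fold lower (9441 and 14255). Nrf1 had a log2 ratio of -0.49 on its brightest of 4 probe sets, which reached 1.13. Tfam, for the factor that packs and transcribes mitochondrial DNA and named after its value was seen, was 1.08-fold higher (2268 and 2094).

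**Figure D4:**
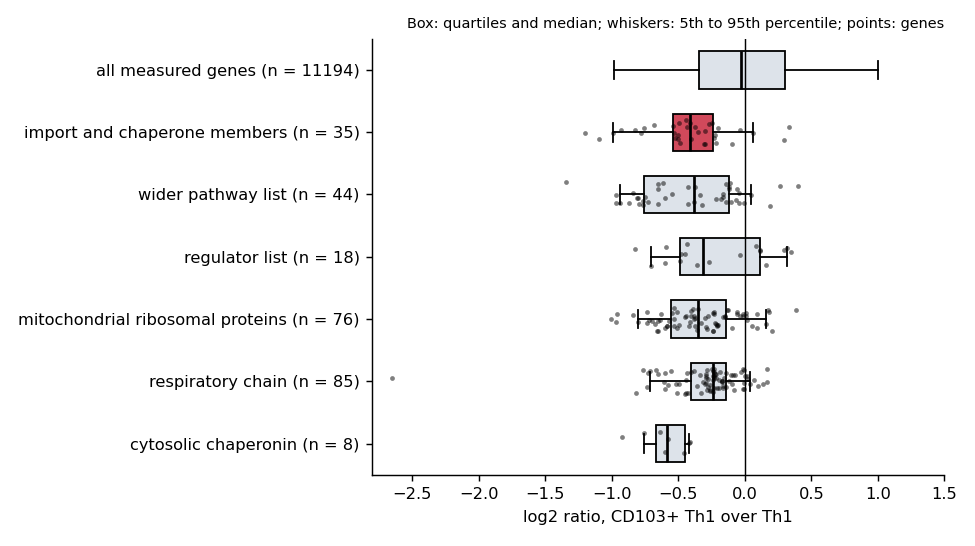
Log2 ratios of CD103+ Th1 over Th1 for all measured genes, the 35 members and 5 other gene groups, with boxes for quartiles and median, whiskers from the 5th to the 95th percentile and a point for each gene except in the first row. The members have a median of -0.41, between those of the cytosolic chaperonin (-0.59) and the mitochondrial ribosomal proteins (-0.35).

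Related gene groups were mostly below 0 too, so the small lower ratios were not limited to import genes. The 8 genes of the cytosolic chaperonin, which folds actin and tubulin, were all below 0, with a median of -0.59 and 4 of them at least 1.5-fold lower. The 76 measured mitochondrial ribosomal protein genes had a median of -0.35, with 65 below 0 (85.5%) and 17 at least 1.5-fold lower (22.4%). The 85 measured respiratory chain genes had a median of -0.24, with 76 below 0 (89.4%) and 11 at least 1.5-fold lower (12.9%). The shares over all measured genes were 52.6% and 13.4%, so that the respiratory chain was near the background at 1.5-fold. Differences between these groups and the members could not be tested with 1 array per condition.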

How the data were processed

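Gene expression was measured in CD4 T cells of 2 culture conditions with 1 array each. The authors deposited linear signal intensities, 1 for each probe set on each array, and the submitters' processing notes name GCOS. The scaling target, filters and detection calls are not given in the sources used here. Probe sets with exactly 1 gene symbol in the platform annotation (34945 of 45037) were used, with symbols updated through gene identifiers to GRCm38.p6, where 34741 matched. Values under the floor, the median of all signals, were set to it. Where both arrays were under the floor no ratio was formed, and where 1 was, the ratio is a bound. Genes were represented by their brightest measured probe set, by mean log2 signal. With 1 array per condition no test was made. Thresholds were 2-fold and 1.5-fold.

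The members, lists and thresholds were chosen with earlier results of these data known. Every member is named. Other lists name genes at least 2-fold apart and up to 5 with the largest ratios. Chchd4, Tfam and Gabpa were added after their values were seen. Planned comparisons of protein sequences were not made here. Alternatives were other scalings, floors, a pseudocount, other probe set choices and unchanged symbols. The steps were tested on simulated data and run in Python 3.11.15 with numpy 2.4.6, pandas 2.3.3 and matplotlib 3.10.9.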

Additional observations from a re-analysis of the deposited data

How the results depend on the processing

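The median log2 ratio of the members stayed below 0 under all 9 alternatives, from -0.44 with the floor at the 75th percentile to -0.31 with probe sets without suffix letters, while that of all measured genes lay between -0.047 and -0.012. Leaving out probe sets with suffix letters removed Lonp1, Mtx2, Timm13, Timm8b and Tomm40. Then 1 member was at least 2-fold lower and 4 of 30 were at least 1.5-fold lower. That share lay near the 13.1% of all genes under this choice, so that the excess over the background at 1.5-fold was lost. The removed genes, except Timm13, had been at least 1.5-fold lower, so that the count fell through their removal. The same choice moved the median of the outer membrane assembly genes to -0.36 and that of the matrix proteases, then Clpp alone, to -0.23. Phb2, the 1 prohibitin measured, moved to -0.35 when its probe sets were averaged. Of 308 values of single members under the alternatives, 294 moved by less than 0.1, 10 by more with the same sign, and 4 changed sign. Those were Tomm20 at 0.026 and Grpel2 at -0.017 after quantile normalization, and Tomm20 at 0.080 and Grpel2 at -0.076 with probe sets averaged, so that neither has a settled direction. Signals carry no detection calls and no replicate, which limits every small ratio here.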

Other observations

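Among the respiratory chain genes set beside the members, Cox6b2, which encodes a form of a cytochrome c oxidase subunit known from testis, was 6.30-fold lower on its 1 probe set, at 268 in CD103+ Th1 against 1686 in Th1. It was named as the gene of that group past 2-fold. Mrps10, for a protein of the small mitochondrial ribosomal subunit, was the gene past 2-fold in its group, with 1083.0 and 2169, 2.00-fold lower, and its other probe set had a log2 ratio of -0.44.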
